A study of Mus musculus with 4 samples.

Results

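The Kruppel-like factor (KLF) genes *Klf2*, *Klf3*, *Klf4*, *Klf6*, *Klf7*, *Klf10*, *Klf11*, *Klf12* and *Klf13* were followed in RNA-seq libraries of mouse splenic CD4+ T cells. These 9 genes were taken by symbol from the 55367 gene symbols of the count tables. Libraries labelled WT were compared with libraries labelled *Satb1* conditional knockout (cKO), 2 of each, all from C57BL/6 spleen and with no treatment. In the study's model *Satb1* F/F mice carry *ThPOK-cre*, which acts from CD4 lineage commitment onwards in the whole CD4+ compartment, and no label splits regulatory from conventional T cells. The labels do not say which alleles the WT mice carry, and the study used young adult mice of both sexes. Expression was measured as CPM, the count of a gene per 1e+06 counts after trimmed mean of M values (TMM) scaling.

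KLF proteins bind GC-rich and CACCC-type DNA elements through zinc fingers at their C-terminal end, and differ in the part before the fingers, which recruits coactivators or corepressors. In T cells KLF2 is known to maintain quiescence and to drive the genes of exit from lymphoid tissue, and its transcript falls after antigen receptor stimulation. KLF4 also restrains T cell division, KLF10 and KLF11 are early response genes of TGF-beta signalling, and KLF13 is an activator of *Ccl5* in T cells. SATB1 organises chromatin in T cells, and the comparison asks how these regulators stand when *Satb1* is deleted after lineage commitment.

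Each member encodes 3 zinc fingers in a stretch of 243 coding bases, according to the longest complete coding transcript of each gene in GENCODE M21 (GRCm38). The coding bases of the last finger, 63 in each member, are given 5′ to 3′ for 6 members because the fingers define the family and decide whether short reads can separate its genes. Capitals mark the codons of the 2 cysteines and 2 histidines that hold the zinc ion. The finger lies at chr8:72320851-72320913 on the plus strand in *Klf2* (exon 3 of 3), at chr12:24660290-24660352 on the plus strand in *Klf11* (exon 4 of 4), at chr15:38295995-38296057 on the minus strand in *Klf10* (exon 4 of 4) and at chr7:63891628-63891690 on the minus strand in *Klf13* (exon 2 of 2). In *Klf6* and *Klf7* it is split by an intron between exons 3 and 4, within chr13:5866746-5867277 (plus) and chr1:64035719-64042330 (minus).
Klf2: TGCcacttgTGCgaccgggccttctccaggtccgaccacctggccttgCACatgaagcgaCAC
Klf6: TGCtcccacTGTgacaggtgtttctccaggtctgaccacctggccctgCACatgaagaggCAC
Klf7: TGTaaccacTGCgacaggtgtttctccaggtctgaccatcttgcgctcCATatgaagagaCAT
Klf10: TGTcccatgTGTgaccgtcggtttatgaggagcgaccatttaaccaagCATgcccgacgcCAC
Klf11: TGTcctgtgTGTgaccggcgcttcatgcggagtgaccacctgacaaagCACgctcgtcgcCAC
Klf13: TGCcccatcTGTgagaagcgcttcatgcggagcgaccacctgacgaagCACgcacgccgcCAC

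The finger sequences fell into pairs and groups of likeness. *Klf11* shared 52 of 63 bases with *Klf13* and 49 with *Klf10*, but 30 with *Klf7*. *Klf6* and *Klf7* shared 52 bases, as did *Klf2* and *Klf4*. Over the whole 243 bases, identity ran from 58.8% (*Klf7* and *Klf11*) to 81.1% (*Klf6* and *Klf7*), and *Klf3* and *Klf12* were identical at 78.2%. The longest run that any 2 members shared in this stretch was 26 bases, in *Klf6* and *Klf7*. The reads were 50 bases long, and no window of 50 bases in the annotated transcripts of a member was found in those of another member. An error-free read of these transcripts could thus not match 2 members. Against all other GENCODE transcripts, on either strand, no window was shared for *Klf2*, *Klf6*, *Klf10* and *Klf11*. The share was 0.147% for *Klf13*, 0.263% for *Klf4*, 3.48% for *Klf3* and 5.35% for *Klf12*. It was 38.2% for *Klf7*, all with *Gm26649*, an overlapping gene on the opposite strand.

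The libraries held between 4495902 and 6555699 gene counts. T cell transcripts were abundant in each, with *Cd4* between 1183 and 1279 CPM and *Cd3e* between 788 and 966 CPM. *Cd8a* lay between 4.25 and 6.86 CPM. Of 8 CD4 T cell markers, 1 was called, *Zbtb7b*, the gene of ThPOK, at 232 and 200 CPM in WT and 338 and 345 CPM in cKO (edgeR adjusted p = 0.0117, and 0.236 without WT 2). *Satb1* did not separate the labels, at 926 ± 81.5 CPM in WT and 896 ± 68.9 CPM in cKO (SD, n = 2 each), a log2 difference of -0.05 (adjusted p = 0.877, edgeR quasi-likelihood test), so each direction below follows the labels. *Xist* had 5447 and 4235 counts in WT against 9 and 6 in cKO, and the Y-linked *Ddx3y* had 0 in both WT libraries against 525 and 597, so the sex of the mice and the genotype cannot be told apart. Summed markers of B cells and myeloid cells were higher in both cKO libraries. The 9 B cell markers summed to 14.2 and 15.7 CPM in WT and to 57.7 and 24.2 CPM in cKO 1 and cKO 2, and the 10 myeloid markers to 29.2 and 37.0 against 105 and 64.0 CPM. *Foxp3*, the factor of regulatory T cells, measured 142 and 121 CPM in WT and 405 and 547 CPM in cKO (edgeR adjusted p = 0.000447), and the part of regulatory cells in the members' values was not tested. The edgeR test called 533 of 12403 genes (adjusted p below 0.05), a share of 4.30%.

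The KLF genes covered a wide range of levels, and their order was examined on a scale corrected for length, CPM per kb of merged exons. *Klf2* (chr8:72319033-72321656, plus strand, 1847 exonic bases) stood highest, at 255 and 286 CPM per kb in WT and 287 and 281 in cKO. *Klf13* (chr7:63886351-63938915, minus strand) followed between 64.1 and 80.5, and the mean of *Klf2* was 3.78 times that of *Klf13*. *Klf3* (chr5:64803388-64832901, plus strand) lay between 42.4 and 47.3 and *Klf6* (chr13:5861482-5870394, plus strand) between 35.4 and 49.0, so these 2 neighbours overlapped. The next pair, *Klf7* (chr1:64029447-64122282, minus strand) at 7.34 to 10.3 and *Klf10* (chr15:38291463-38300706, minus strand) at 7.63 to 8.20, overlapped as well. *Klf11* (chr12:24651274-24662789, plus strand) lay at 1.14 to 3.64. *Klf4* (chr4:55527143-55532466, minus strand) at 0.187 to 0.441 and *Klf12* (chr14:99870632-100284679, minus strand) at 0.0818 to 0.225 were lowest and overlapped each other. Each other step in the order was free of overlap across the 4 libraries. These values rest on the full annotated exon length, which is long for *Klf3* (11243 bases). It would be too long for a gene whose shorter transcripts are the ones in use. For *Klf7*, 3200 of 8131 exonic bases overlap genes on the opposite strand. Its place beside *Klf10* is uncertain, as the strand setting of the counting is not given.

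**Figure D1:**
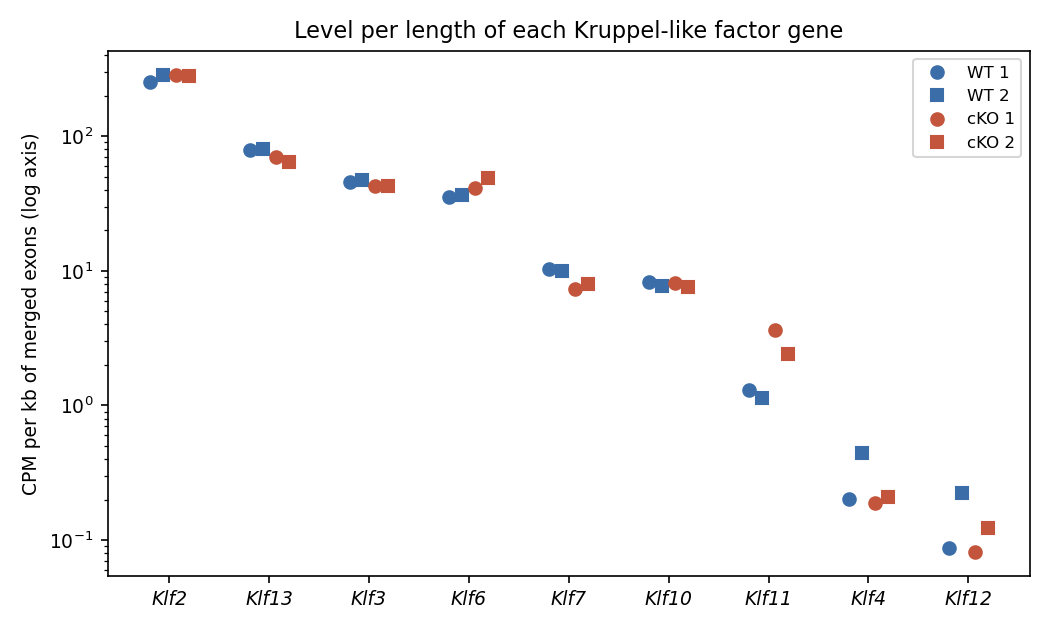
Level of each KLF gene in the 4 libraries, as CPM per kb of merged GENCODE exons on a log axis, with WT in blue, cKO in orange, replicate 1 as circles and replicate 2 as squares. *Klf2* stands above all others at 255 to 287, and *Klf4* and *Klf12* lie below 0.5 in each library.

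By read number, *Klf2*, *Klf3* and *Klf13* carried most of the signal of the family. Their CPM made up 84.9% and 85.5% of the members' summed CPM in WT, and 84.0% and 82.0% in cKO. The summed CPM itself was 1860 and 1948 in WT and 1829 and 1803 in cKO. Among the genes tested, these 3 members ranked between 242 and 289 by mean CPM, and *Klf11* ranked 9312.

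The members were then compared between the labels. Of 9 members, 7 passed the filter on low counts, and 1 of the 7, *Klf11*, was called, upwards, beside a background of 4.30% of all genes called, 2.35% called higher and 1.95% called lower. Their median log2 fold change was -0.0177, beside -0.00155 over all tested genes, with 3 members above 0 and 4 below. Libraries of the 2 labels did not overlap in CPM for 5 of the 7, where 50.3% of all tested genes showed no overlap. An unadjusted p under 0.05 was found for 4 of the 7 (*Klf6*, *Klf7*, *Klf11* and *Klf13*) and for 19.1% of all tested genes. In bulk RNA a change in the share of cells that express a gene and a change of RNA per cell cannot be told apart.

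**Figure D2:**
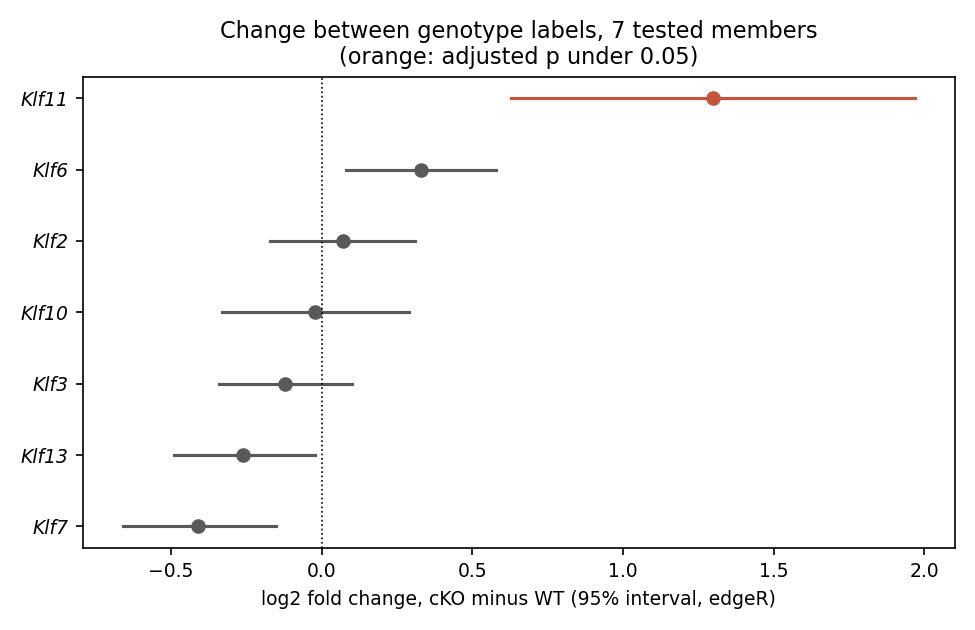
Log2 fold change (cKO minus WT) of the 7 tested KLF genes with the 0.95 interval of the edgeR fit. *Klf11*, in orange, passed an adjusted p of 0.05 at 1.30, and the other 6 lie between -0.41 and 0.33.

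*Klf2*, the factor of T cell quiescence and egress, overlapped between the labels. It measured 472 and 528 CPM in WT and 531 and 520 CPM in cKO. WT 1 was lowest, cKO 2 was next, and WT 2 lay between the cKO libraries. On the log2 scale cKO minus WT came to 0.07 (SE 0.11, edgeR adjusted p = 0.770), and the interval of the fold at the 0.95 level ran from 0.890 to 1.24.

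*Klf4*, which restrains T cell division and is also a factor of monocytes, was barely detected and was not tested. It had 4 and 6 counts in WT and 3 and 3 in cKO, that is 0.612, 1.34, 0.572 and 0.638 CPM. A count of 3, taken as the floor, corresponds to 0.459 to 0.672 CPM in these libraries. The ratio of summed counts scaled by library size, cKO over WT, was 0.663 with an exact interval of 0.198 to 2.01, which covers counting error alone. With no filter on low counts the edgeR log2 fold change was -0.61 (SE 0.92, adjusted p = 0.804).

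*Klf3* and *Klf12* encode repressors that bind the corepressor CtBP. *Klf3* measured 510 and 531 CPM in WT and 481 and 477 CPM in cKO. Both cKO libraries lay below both WT libraries, by a small margin, and the log2 fold change of -0.12 (SE 0.10, edgeR adjusted p = 0.564) did not pass. The interval of the fold was 0.787 to 1.07. *Gm20033*, on the opposite strand, overlaps 404 of its 11243 exonic bases and had 81 to 126 counts per library, against 2242 to 3336 for *Klf3*. *Klf12* had 4 and 7 counts in WT and 3 and 4 in cKO and was not tested. Its ratio of summed counts, scaled in the same way, was 0.703 with an exact interval of 0.231 to 1.99, and the edgeR value with no filter was -0.53 (SE 0.85, adjusted p = 0.815).

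*Klf6* and *Klf7*, the closest pair over the 243 bases of the fingers, deviated in opposite directions without passing the test. *Klf6*, an early response gene of many cell types, measured 156 and 161 CPM in WT and 183 and 215 CPM in cKO. Both cKO libraries lay above WT, with cKO 2 the higher. The difference was 0.33 on the log2 scale (SE 0.11, edgeR adjusted p = 0.141), and the interval of the fold was 1.06 to 1.49 before adjustment over genes. On leaving out single libraries the difference lay between 0.21 (without cKO 2) and 0.44 (without cKO 1). *Klf7* measured 83.7 and 81.6 CPM in WT and 59.6 and 65.3 CPM in cKO. Here both cKO libraries lay below WT, and the WT libraries were close together. Their log2 difference came to -0.41 (SE 0.11, edgeR adjusted p = 0.0870), with an interval of the fold of 0.633 to 0.901. The difference of *Klf7* lay between -0.47 (without cKO 2) and -0.34 (without cKO 1) when single libraries were left out. Genes on the opposite strand overlap 3200 of the 8131 exonic bases of *Klf7*, and the sources used here do not say whether counting used strand. Of these genes *Gm13748* had between 0 and 8 counts, and *Gm26649* was not analysed here.

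*Klf10*, *Klf11* and *Klf13* encode factors that recruit the corepressor Sin3A and are alike in their fingers. *Klf10* measured 34.3 and 32.3 CPM in WT and 33.9 and 31.9 CPM in cKO. The groups overlapped, with a log2 difference of -0.02 (SE 0.14, edgeR adjusted p = 0.966) and an interval of the fold of 0.796 to 1.23. *Klf13* measured 598 and 606 CPM in WT and 524 and 483 CPM in cKO. Both cKO libraries lay below WT, with a log2 fold change of -0.26 and an SE of 0.10. With an edgeR adjusted p = 0.218 it did not pass, and the interval of the fold, 0.710 to 0.983, was not adjusted over genes. With single libraries left out, its log2 fold change ran from -0.32 (without cKO 1) to -0.20 (without cKO 2). The differences between these members' changes were not tested.

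*Klf11* was the member that passed. It had 37 and 22 counts in WT and 83 and 49 in cKO, which is 5.66 and 4.93 CPM against 15.8 and 10.4 CPM. The groups did not overlap, and cKO 1 stood highest. Counting error alone gave exact Poisson intervals of 3.98 to 7.80 and 3.09 to 7.46 CPM in WT, and of 12.6 to 19.6 and 7.71 to 13.8 CPM in cKO. The mean rose from 5.29 ± 0.516 to 13.1 ± 3.82 CPM (SD, n = 2 each), a log2 fold change of 1.30 with an SE of 0.29, or 2.46-fold with an interval of 1.55 to 3.91. The edgeR adjusted p = 0.0447 lay close to the threshold. The size of change exceeded that of 96.6% of tested genes, a share not matched for level. Only 24.9% of tested genes had a lower mean CPM than *Klf11*.

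The call of *Klf11* depended on the fit. It was lost in DESeq2 (1.31, adjusted p = 0.0754), without WT 2 (1.21, adjusted p = 0.239) and without cKO 1 (0.96, adjusted p = 0.0719), and it held in 9 of 12 alternatives, with adjusted p from 9.6e-05 to 0.239 over all of them. In each the value stayed above 0, between 0.96 and 1.56. The order of the libraries in *Klf11*, with cKO 1 above cKO 2 and both above WT, was also that of the summed B cell and myeloid markers, and the part of such cells in the result was not tested. The study's methods give magnetic enrichment and a flow cytometric sort of T cells under cell culture. Their RNA-seq section names no gates for these libraries. Of the defining markers, *Pax5* had 5, 4, 53 and 15 counts in WT 1, WT 2, cKO 1 and cKO 2, and *Lyz2* had 14, 12, 119 and 42. Single markers departed from that order, and those not called are named here after their values were seen. *Itgam* had 14, 10, 7 and 5 counts, *Cd79b* 37, 27, 70 and 23, *Ebf1* 6, 3, 15 and 0, and *Csf1r* 116, 89, 201 and 89. *Fcrla*, *Blnk* and *Cd14*, with at most 15 counts in a library, had a lower CPM in cKO 2 than in WT 2. *Cybb* (69 and 73 counts) and *Cd22* (48 and 50 counts) were higher in cKO 2 than in cKO 1. Of the lists, 1 of 3 tested B cell markers (*Pax5*) and 4 of 8 tested myeloid markers (*S100a9*, *Ltf*, *Lyz2* and *Cybb*) were called higher, beside 2.35% of all tested genes. *Pax5* did not pass without WT 2 (adjusted p = 0.138) or without cKO 1 (0.0919). *Cybb* did not pass in DESeq2 (adjusted p = 0.0636), without WT 1 (0.114) or without WT 2 (0.112). *S100a9* and *Ltf* were at 0 in WT 1 and at 1 count in WT 2, and no marker of either list was at 0 in all libraries.

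**Figure D3:**
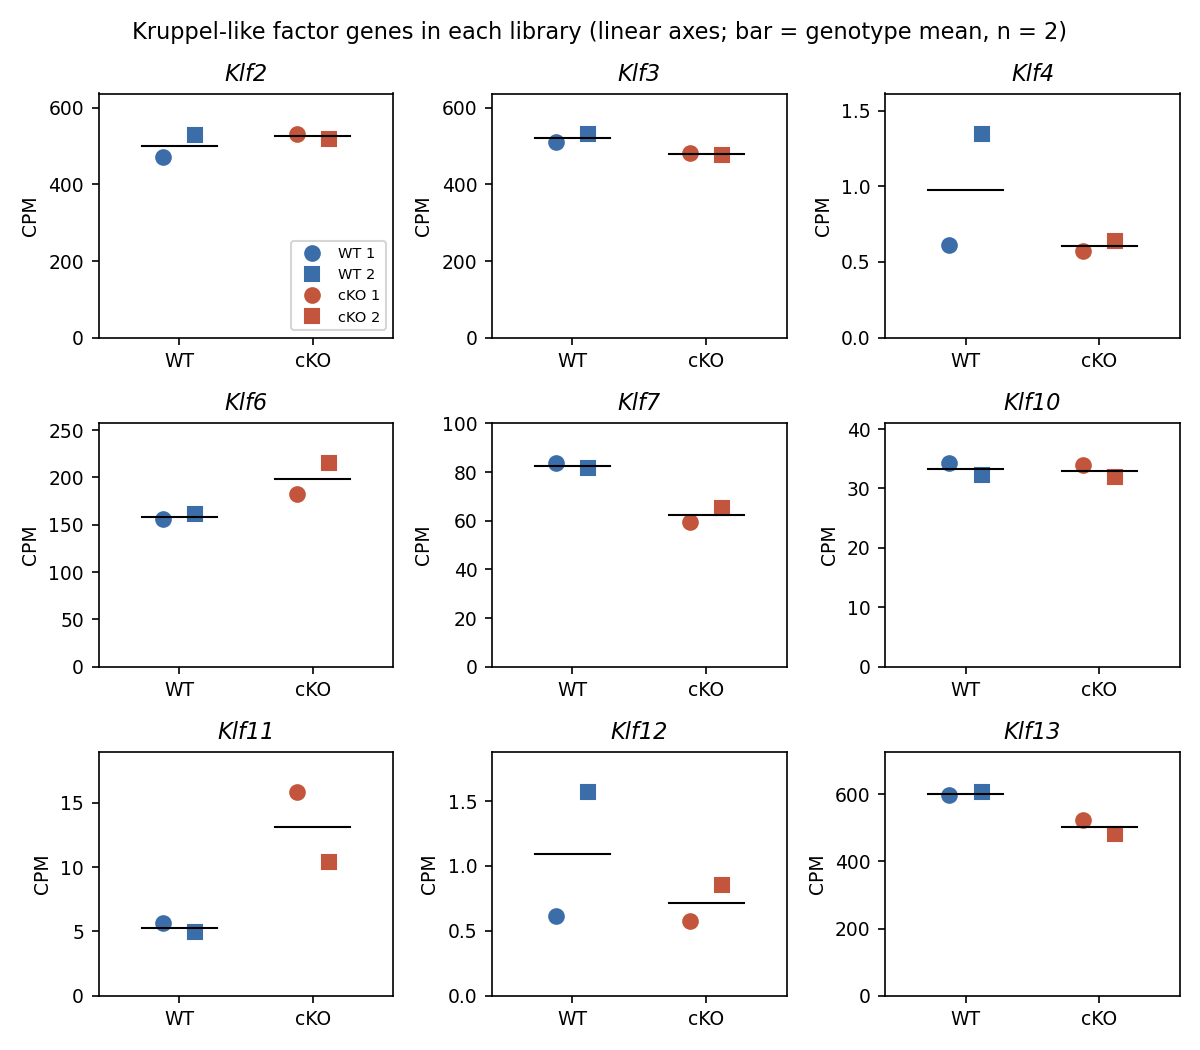
CPM of each KLF gene in each library on linear axes that start at 0, with WT in blue, cKO in orange, circles for replicate 1, squares for replicate 2 and a bar at the genotype mean (n = 2). *Klf11* is higher in both cKO libraries (15.8 and 10.4 CPM) than in WT (5.66 and 4.93 CPM), and *Klf2* and *Klf10* overlap between the labels.

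**Figure D4:**
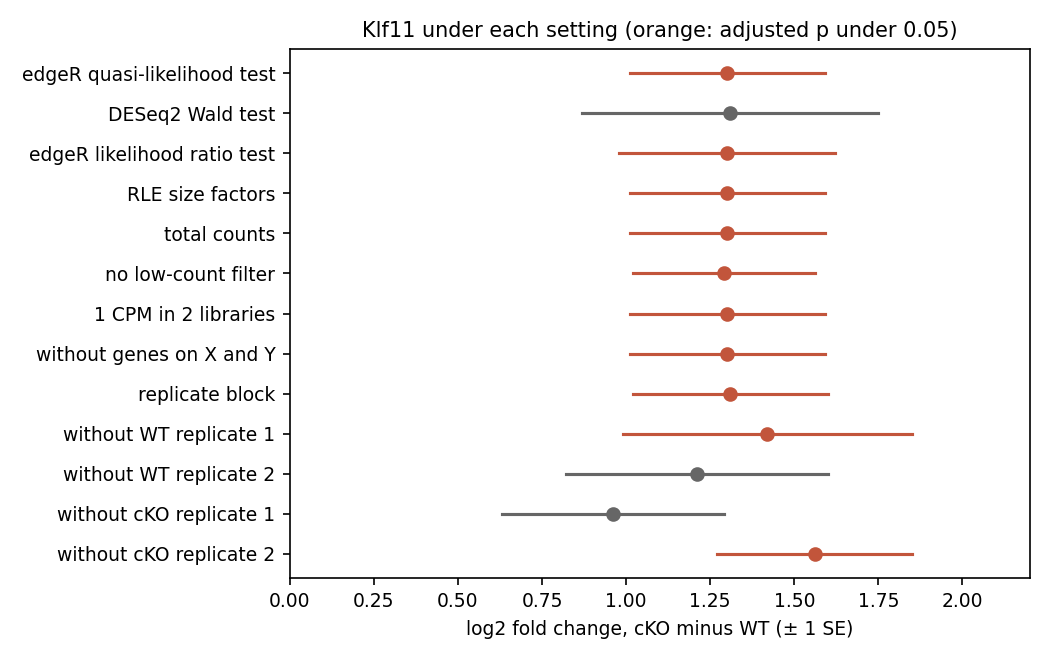
Log2 fold change of *Klf11* (cKO minus WT, ± 1 SE) in the edgeR quasi-likelihood test and 12 alternatives, in orange where the adjusted p was under 0.05. The value stays between 0.96 and 1.56, and 3 alternatives in grey do not pass.

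**Figure D5:**
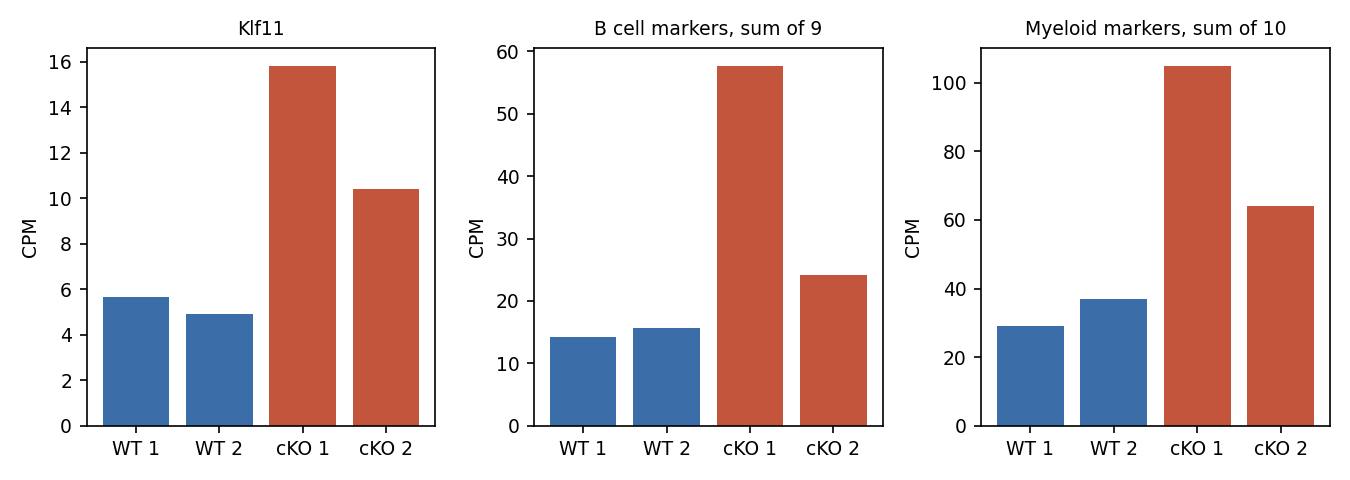
CPM of *Klf11*, of 9 summed B cell markers and of 10 summed myeloid markers in each library (bars from 0, 1 library each). In all 3 panels cKO 1 is highest, followed by cKO 2.

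The relatives of the members in the KLF and SP family were read from a list of 17 genes. Like the other lists, it was chosen with earlier results of these data known. Of these 7 were tested, and 6 had no count in any library. In edgeR 1 was called higher and 0 lower, beside 2.35% and 1.95% of all tested genes. The ubiquitous activators *Sp1* and *Sp3* had levels of 302 and 287 and of 261 and 295 CPM in WT, and of 316 and 329 and of 284 and 299 CPM in cKO, with log2 fold changes of 0.13 (adjusted p = 0.510) and 0.07 (adjusted p = 0.772). *Sp4* (0.02) and *Klf16* (-0.05) had adjusted p of 0.944 and 0.902. *Klf9* had 7 to 13 counts per library, and its log2 fold change of 0.64 had an SE of 0.50 (adjusted p = 0.545), and it ran from 0.21 without WT 1 to 1.10 without WT 2. *Sp6* was the called gene, at 10.9 and 11.7 CPM in WT and 20.2 and 30.2 CPM in cKO, a log2 fold change of 1.16 (SE 0.23, edgeR adjusted p = 0.0294) that did not pass without WT 2 (adjusted p = 0.111, in a range from 2.63e-06 over its alternatives). Its value is uncertain, since *Gm11532* on the opposite strand overlaps 3329 of its 3841 exonic bases and had 103 and 59 counts in WT and 162 and 231 in cKO.

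Regulators and cofactors of KLF proteins came next, a list of 22 genes with the transcription factors of *Klf2*, the ubiquitin ligases of KLF proteins, the TGF-beta pathway above *Klf10* and *Klf11*, and the corepressors. Of 21 tested, 0 were called by edgeR and 0 by DESeq2, beside 4.30% of all tested genes in edgeR and 425 of 12403 in DESeq2. In edgeR 2 (9.52%) had an unadjusted p under 0.05, beside 19.1% of all. *Foxo1*, which activates *Klf2*, measured 488 and 498 CPM in WT and 524 and 511 CPM in cKO (log2 fold change 0.07, adjusted p = 0.756). The median log2 fold change of the list was 0.0707. Among 18 other quiescence factors, such as *Foxp1*, *Tob1*, *Btg1* and *Slfn2*, 0 were called by either tool, 2 (11.1%) had an unadjusted p under 0.05, and the median was 0.0639.

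Genes tied to KLF activity in T cells gave mixed directions. Of 11 tested, 2 were called higher and 2 lower in edgeR, beside 2.35% and 1.95% of all tested genes, with a median of -0.100. *S1pr1*, the egress receptor activated by KLF2, measured 791 and 757 CPM in WT and 790 and 752 CPM in cKO, a log2 fold change of -0.01 (SE 0.11, adjusted p = 0.989) with an interval of the fold of 0.842 to 1.18. For *S1pr1*, as for *Klf2*, the libraries of the labels overlapped.

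*Ccr7*, the chemokine receptor of lymph node entry, went from 553 and 604 CPM in WT to 403 and 349 CPM in cKO and so fell by 0.62 (log2, edgeR adjusted p = 0.0199). *Ccl5*, the chemokine gene that KLF13 activates, fell by 1.38 (adjusted p = 0.0207), from 59.4 and 42.6 CPM to 14.5 and 25.3 CPM. *Il7r*, the receptor of the survival cytokine IL-7, rose by 1.04 (adjusted p = 0.0257), from 365 and 486 CPM to 1052 and 697 CPM. *Cd69*, whose product holds S1PR1 inside the cell, rose by 0.79 (adjusted p = 0.0292), from 136 and 127 CPM to 268 and 186 CPM. *Ccr7* and *Cd69* did not pass without WT 2, at -0.56 and 0.74, and *Il7r* did not pass in DESeq2 (adjusted p = 0.0772). With single libraries left out, the log2 values ran from -0.73 to -0.52 for *Ccr7* and from -1.83 to -1.03 for *Ccl5*. They ran from 0.71 to 1.31 for *Il7r* and from 0.50 to 1.03 for *Cd69*. Over their alternatives the adjusted p ran from 9.94e-07 to 0.262 for *Ccr7*, from 4.19e-13 to 0.0225 for *Ccl5*, from 3.69e-19 to 0.0772 for *Il7r* and from 2.79e-11 to 0.193 for *Cd69*. *Cd8b1*, a CD8 T cell marker, also fell, from 42.4 and 52.0 CPM to 27.4 and 22.5 CPM (edgeR adjusted p = 0.0201, and 0.156 without WT 2). The other CD8 marker, *Cd8a*, overlapped between the labels, at 5.93 ± 0.809 CPM in WT and 5.56 ± 1.85 CPM in cKO (SD, n = 2 each), with a log2 difference of -0.07 (edgeR adjusted p = 0.941). *Ccl5* is expressed by CD8 T cells too, and their part in its value was not tested.

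Several KLF genes are early response genes, so 14 immediate early genes were examined for signs of stimulation. Of 13 tested, 0 were called in edgeR, beside 4.30% of all tested genes, and 1 in DESeq2, which called 425 of 12403 genes. In edgeR 6 (46.2%) had an unadjusted p under 0.05, beside 19.1% of all tested genes. The median log2 fold change was 0.228. The gene called in DESeq2 was *Nfkbia*, an inhibitor of NF-kappaB, at 187 and 185 CPM in WT and 293 and 236 CPM in cKO (0.51, adjusted p = 0.0287 in DESeq2, and 0.50, adjusted p = 0.0517 in edgeR). Of the 13 genes, 8 had a positive and 5 a negative value. The other genes with an unadjusted p under 0.05, named after their values were seen, were *Ier5* (0.37), *Egr2* (0.44), *Junb* (0.23), *Jund* (-0.26) and *Fos* (-0.50), with edgeR adjusted p of 0.137, 0.255, 0.216, 0.221 and 0.260.

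The genes whose pattern over the 4 libraries was nearest to *Klf2* were sought among 718 genes of similar level, by Euclidean distance between log2 CPM centred on each gene's mean. They were *Peli1* (0.0377), *Ripor2* (0.0413), *Tcf25* (0.0423) and *Ctcf* (0.0457). *Klf3* and *Klf13* lay at 0.208 and 0.354, ranks 250 and 525. With 4 libraries and a flat profile, such nearness is a description.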

How the data were processed

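RNA of sorted CD4+ T cells from spleen was sequenced in 4 libraries, of which 2 carry the label WT and 2 the label *Satb1* cKO. Per the labels, the authors aligned 50 base reads to mm10 with HISAT2 2.1.0 and deposited raw counts per gene from HTSeq 0.11.1. The annotation and strand setting are not given in the sources used here. Of the sum of gene counts, reads outside features and ambiguous reads, the second took 59.4% to 64.5% and the third 0.611% to 0.734%. The HTSeq summary lines were kept out of library sizes.

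Members and gene lists were chosen with earlier results of these data known. Genes were filtered with filterByExpr (minimum count 10), scaled by TMM and tested with the edgeR 4.0.16 quasi-likelihood test in R 4.3.3, two-sided, without covariates, with Benjamini-Hochberg adjustment over 12403 genes and a threshold of 0.05. The SE is the absolute log2 fold change over the square root of F. Named genes were the 9 members, checks of labels and sex, called genes of each list (at most 4, by adjusted p), 9 genes named whatever they showed (*Foxo1*, *S1pr1*, *Ccr7*, *Il7r*, *Klf9*, *Klf16*, *Sp1*, *Sp3* and *Sp4*, of which some were also called), and the 4 genes nearest to *Klf2*. Some genes of the lists count in their totals and are not reported here by name. Other genes were named after their values were seen. With 2 libraries against 2, an exact permutation test of 1 gene cannot go below 0.333, so p-values rest on spread shared across genes, and measure only the spread between these libraries, which the study calls biological replicates and the labels do not assign to separate mice. The procedure was tested on simulated data. The 12 alternative fits used DESeq2 1.42.0, the likelihood ratio test, RLE or total scaling, or other filters. They also covered removal of X and Y genes, a replicate block and leaving out each library. A stricter threshold, 0.01, was applied to the main fit and is not among the 12. Positions and lengths came from GENCODE M21 on GRCm38, where 53186 symbols matched. Plots used matplotlib 3.10.9. Intervals of counts are exact, at a level of 0.95, and cover counting error alone, since reads carry no molecular identifier and are not each a separate molecule.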

Additional observations from a re-analysis of the deposited data

How the results depend on the processing

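The count of called genes, 533, was 1096 with the likelihood ratio test, 1367 without a filter, 1165 with the replicate block and 153 at an adjusted p under 0.01, and ran from 180 (without WT 2) to 1790 (without cKO 2) on leaving out single libraries, with 1491 without cKO 1. DESeq2 called 425 genes. The cause of the differences in count was not tested. Of the KLF members, 1 was called, 0 in DESeq2 and at an adjusted p under 0.01, 2 with the replicate block (*Klf11* and *Klf7*), and 0 (without WT 2) to 2 on leaving out single libraries. The 2 were *Klf6* and *Klf13* without cKO 1, and *Klf11* and *Klf7* without cKO 2. In edgeR, 4 of 7 members had an unadjusted p under 0.05, beside 19.1% of all tested genes. With a library left out, the lone library is assumed to vary like the other label.

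Leaving out single libraries turned the sign of several values near 0. The ranges were -0.0016 to 0.15 for *Klf2*, -0.07 to 0.04 for *Klf10*, -0.13 to 0.04 for *Satb1*, -0.04 to 0.03 for *S1pr1*, -0.17 to 0.10 for *Klf16*, -0.0097 to 0.15 for *Sp3* and -0.07 to 0.11 for *Sp4*. Of the members' values under alternatives, 74 kept direction and call, 4 gained a call, 3 lost it and 3 changed sign.

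Same-numbered libraries are not stated to share an animal or batch, and their deviations correlated by 0.0503 across genes. At this depth *Klf4* and *Klf12*, with at most 7 counts, limit any statement on change, and *Klf11* rests on 22 to 83 counts.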
